A study of Drosophila melanogaster with 9 samples.

Results

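The transcripts of yl, Ggt-1, wfs1 and CG12163 were followed across the 9 libraries of an ORB2 RNA immunoprecipitation from early Drosophila melanogaster embryos. They were chosen from these same data because they were among the transcripts that fell most from input in one of the immunoprecipitates. In the main fit Ggt-1, yl and wfs1 had the 3 largest falls in the control immunoprecipitate among called genes of sufficient level. CG12163 had the second largest in the ORB2 immunoprecipitate. The rule asked for these 4 symbols, and all 4 were found among the 6440 genes listed.

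The 3 groups of 3 libraries were made from extracts of wild type embryos, 0 to 3 h old, and no group carried a mutation, transgene or drug. In the ORB2 IP group, the extract was precipitated with the synthetic Fab anti-ORB2 E8 on anti-FLAG beads. The control IP group used Fab anti-EGFR-C1 instead, and the input group was total RNA with no precipitation. The extract was cleared by centrifugation after lysis and again before the beads were added, and the labels do not say at which of these steps the input was taken. The labels number the replicates and do not say whether they came from separate embryo collections, so p-values measure the spread between these libraries only.

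As background, all 4 genes are known or predicted to encode proteins that enter the secretory pathway, and mRNAs of that kind are usually translated by ribosomes at the endoplasmic reticulum (ER). yl (yolkless) encodes the oocyte receptor of the low-density lipoprotein (LDL) receptor family that takes up yolk protein through clathrin-coated pits. Ggt-1 encodes a gamma-glutamyl transpeptidase, an enzyme class of the cell surface that cleaves glutathione. wfs1 encodes the fly homolog of mammalian wolframin, an ER membrane protein. CG12163, now named CtsF, encodes a cathepsin F, a cysteine protease of the lysosome. ORB2 belongs to the CPEB proteins, which bind mRNAs and control their translation through their 3′ untranslated regions (3′UTRs).

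The values are the authors' normalized counts, which compare one transcript between libraries, and TPM, which is also scaled for transcript length and was used to compare transcripts with each other. Neither measures the amount of RNA recovered, so percentages of input compare library values and are not recoveries. Normalized-count totals over the listed genes ran from 2625388 in an input to 5368634 in an ORB2 IP library. ORB2 IP replicate 2 resolved low values least, with 108 genes at 0 and a lowest positive value of 5.70, against 0 to 14 genes at 0 and lowest values of 0.70 to 1.73 elsewhere. Input replicate 1 stood apart. Across genes its Spearman correlation with the immunoprecipitates was 0.811 to 0.856, whereas that of input replicates 2 and 3 was 0.557 to 0.671. By the same measure, ORB2 IP replicate 3 resembled control IP (0.929 to 0.953) about as much as its own group (0.939 and 0.945). ORB2 IP replicates 1 and 2 lay farther from control IP, with values of 0.828 to 0.875. All 16 early embryo markers searched, among them bcd, nos, osk and CycB, were listed, while 0 of 15 follicle cell and eggshell markers were matched to a listed gene. The libraries were made from whole embryos, so a transcript in fewer cells and less of it per cell cannot be told apart.

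In the input the 4 transcripts spanned a wide range of abundance. Ggt-1 and yl were abundant, at 580.2 ± 183 and 480.1 ± 244 TPM (SD, n = 3), which placed them 225th and 276th of the 6440 genes. Their input values overlapped, so the order between them was within the spread of the replicates. CG12163 followed at 172 ± 52.7 TPM (SD, n = 3; 781st) without overlapping either of them. wfs1 was the rarest at 28.6 ± 13.9 TPM (SD, n = 3; 3749th) and lay below the other 3 in every input library. In every group wfs1 had the lowest TPM. In control IP the TPM of yl was 34.2 ± 6.09, of Ggt-1 42.9 ± 11.3, of CG12163 27.7 ± 6.33 and of wfs1 2.32 ± 1.05 (SD, n = 3 each). The 3 more abundant ones overlapped there, so their order in control IP was within the spread of the replicates. In ORB2 IP they were at 89.7 ± 29.5 TPM for yl, 140.3 ± 65.8 for Ggt-1, 24.8 ± 5.26 for CG12163 and 9.34 ± 3.76 for wfs1 (SD, n = 3 each), where yl and Ggt-1 overlapped.

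yl lies on the X chromosome at 14193214 to 14199958 on the plus strand (BDGP6.54), and its annotated transcript of 6351 nt, with a 3′UTR of 372 nt, is longer than 94.9% of those of the listed genes. Its normalized counts were 5423, 11738 and 7668 in input replicates 1 to 3. The ORB2 IP libraries held 2137, 2368 and 1629.9, and the control IP libraries 1063, 1045 and 764. The 3 groups did not overlap, with input highest and control IP lowest, and the input replicates themselves differed by more than 2-fold. Means relative to the input mean were 24.7% in ORB2 IP and 11.6% in control IP. In TPM the same shares were 18.7% and 7.13%. The exons of yl overlap mir-4917 and a further noncoding entry of the same orientation, and reads of the shared stretch cannot be assigned to one of them.

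Ggt-1 lies on the X chromosome at 18505883 to 18512521 on the minus strand, with a transcript of 2396 nt and a 3′UTR of 183 nt. Its normalized counts were 2524, 4044 and 3769 in input replicates 1 to 3. ORB2 IP held 1286, 1185 and 705, and control IP held 505, 436 and 281. The order was that of yl, with no overlap between any of the groups, and the lowest value of each immunoprecipitate was in replicate 3. ORB2 IP averaged 30.7% of the input mean and control IP 11.8%, or 24.2% and 7.39% in TPM.

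wfs1 lies on chromosome 3R at 22687542 to 22690380 on the minus strand. Its transcript of 2671 nt has an annotated 3′UTR of only 25 nt, shorter than those of all but 1.24% of the listed genes, whose median is 309 nt. Normalized counts were 134, 287 and 199 in input replicates 1 to 3, 86.0, 122 and 59.6 with the anti-ORB2 Fab, and 31.0, 36.3 and 13.9 with the control Fab. The groups were again separated, but input and ORB2 IP only narrowly, the lowest input library being 1.10-fold above the highest ORB2 IP library. ORB2 IP replicate 2, the library with the coarsest low values, was the highest of its group. wfs1 kept the largest share in ORB2 IP, 43.2% of the input mean against 13.1% in control IP (32.6% and 8.11% in TPM).

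CG12163 lies on chromosome 3R at 5237651 to 5251745 on the minus strand, with a transcript of 2299 nt and a 3′UTR of 240 nt. Its normalized counts were 602, 966 and 998 in input replicates 1 to 3. The ORB2 IP libraries held 114, 214 and 173, and the control IP libraries 173, 244 and 234. Both immunoprecipitates lay below every input, but they overlapped each other, unlike those of the other 3 transcripts. ORB2 IP averaged 19.5% of the input mean and control IP 25.4%, or 14.4% and 16.1% in TPM. Its exons overlap asRNA:CR44019 on the opposite strand, and since the use of strand in counting is not given in the sources used here, reads of the pair cannot be told apart.

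**Figure D1:**
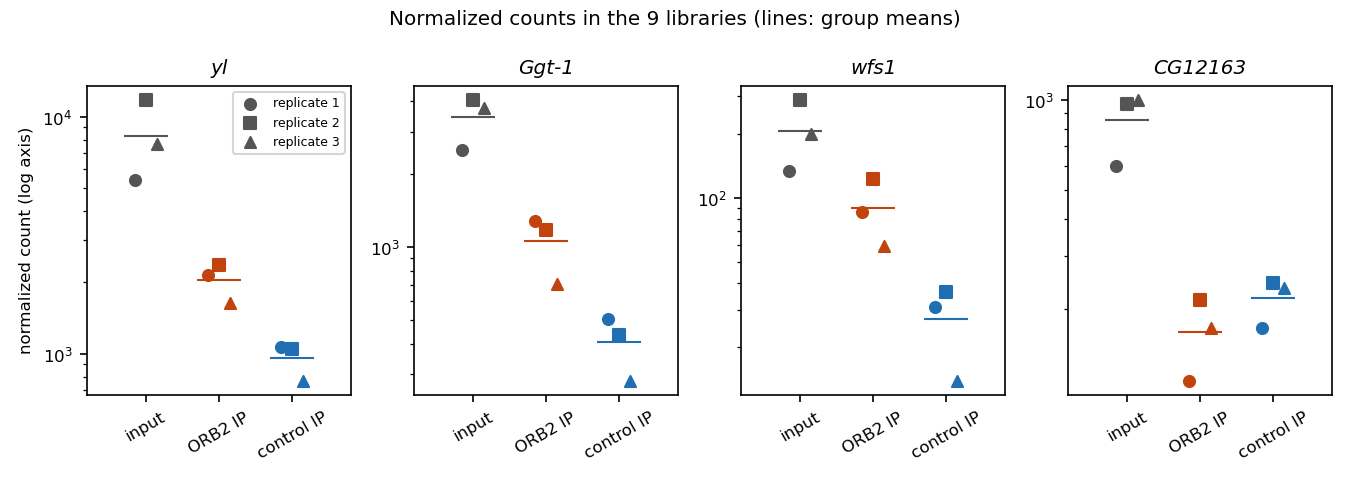
Normalized counts (log axis) of yl, Ggt-1, wfs1 and CG12163 in input, ORB2 IP and control IP, one point per library with the replicate number as its shape and a line at each group mean. Control IP is lowest and separated from ORB2 IP for yl, Ggt-1 and wfs1, while the ORB2 IP and control IP values of CG12163 overlap.

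None of the 4 was at 0 in any library, so the transcripts were depleted from the immunoprecipitates and not lost from them. Input replicate 1 was the lowest input for all 4, at 64.9% to 73.3% of the input mean in normalized counts. Every immunoprecipitate nevertheless lay below input replicate 1, with the lowest input 2.47 to 5.10 times the highest control IP library and 1.10 to 2.82 times the highest ORB2 IP library. Of all genes tested, 37.1% had control IP values that were all below input, and 32.1% had such ORB2 IP values.

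Against input the fold changes chose the transcripts, so they are given as a description. In control IP the log2 fold changes were −3.09 (SE 0.27) for Ggt-1, −3.05 (SE 0.28) for yl, −2.93 (SE 0.40) for wfs1 and −1.95 (SE 0.25) for CG12163. The median of all 6355 genes tested was 0.01 and their 5th percentile −1.86. All 4 were called lower by limma with Benjamini-Hochberg adjustment, where 32.3% of all genes tested were, and nothing is read from that count. In ORB2 IP the log2 fold changes were −2.36 (SE 0.30) for CG12163, −1.96 (SE 0.32) for yl, −1.72 (SE 0.30) for Ggt-1 and −1.19 (SE 0.35) for wfs1, with a median of −0.03 and a 5th percentile of −1.46 over 6344 genes. All 4 were called lower, where 25.1% of all genes tested were. The call for wfs1 in ORB2 IP was lost when ORB2 IP replicate 3 (log2 fold change −0.94), input replicate 2 (−0.92) or input replicate 3 (−1.19) was left out.

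The position of each transcript among the falls differed between the immunoprecipitates. Falls were ranked among genes that were called lower, averaged 100 or more normalized counts and had separated groups, 1612 of them in control IP and 1371 in ORB2 IP. CG12163 was second in ORB2 IP, between Sry-alpha (−2.37) and dah (−2.35), and 181st in control IP. In ORB2 IP yl was 22nd, Ggt-1 was 73rd and wfs1 was 496th. The level filter was passed by wfs1 in control IP through its input mean of 206.8, its control IP mean being 27.1. Among all genes tested wfs1 was 4th from the lowest there in the main fit. That place ran from 2nd without control IP replicate 2 to 29th without control IP replicate 3, and was 20th in TPM (pseudocount 1). Just below wfs1 in control IP came CG32537 (−2.83), Hsp60A (−2.82), AP-2mu (−2.82), nos (−2.81) and GCS1 (−2.79), and just below dah in ORB2 IP came Brd8 (−2.31) and CaBP1 (−2.31). Neighbouring falls are separated by less than their SE, 0.24 to 0.40 in control IP and 0.26 to 0.31 in ORB2 IP, so the boundary of the selection is not a gap in the data.

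Setting the immunoprecipitates against each other asks whether a transcript had higher values with the anti-ORB2 Fab than with the unrelated Fab. yl, Ggt-1 and wfs1 were higher in ORB2 IP in 3 of 3 libraries, and CG12163 did not pass the test. The rule did not name this contrast, but it uses the control IP and ORB2 IP libraries that chose the transcripts. A low control IP value raises this difference for yl, Ggt-1 and wfs1, and a low ORB2 IP value lowers it for CG12163, so the test is not independent of the choice.

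yl was 2.14-fold higher in ORB2 IP by the ratio of means, a log2 fold change of 1.09 (SE 0.20, limma Benjamini-Hochberg adjusted p 0.00289). Its lowest value in ORB2 IP was 1.53 times its highest in control IP. With the trend on transcript length removed the log2 fold change was 0.44 (SE 0.15), with an adjusted p of 0.0352. The 1568 transcripts of 3296 nt or more, to which yl belongs, had a median log2 fold change of 0.48 in this comparison.

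Ggt-1 was 2.60-fold higher in ORB2 IP, a log2 fold change of 1.37 (SE 0.26, limma Benjamini-Hochberg adjusted p 0.0032), and every ORB2 IP library lay above every control IP library. wfs1 was 3.30-fold higher, with a log2 fold change of 1.73 (SE 0.39, limma Benjamini-Hochberg adjusted p 0.00607) and 1.64-fold between the nearest libraries. wfs1 thus had the largest fold and the largest SE of the 4. These 3 were called higher, where 20.8% of the 6318 genes tested were, and 27.6% of all genes had ORB2 IP values that were all above those of control IP. Over all genes 1316 were higher and 1366 lower, but with equal library totals 383 and 2182 were, and with TPM 1356 and 712. CG12163 had a log2 fold change of −0.41 (SE 0.24, limma Benjamini-Hochberg adjusted p 0.196), and its values overlapped. With equal library totals its log2 fold change was −0.76 and the adjusted p 0.0174, while the median of all genes moved from 0.00 to −0.35. Relative to that median it was −0.41 in both scalings.

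**Figure D2:**
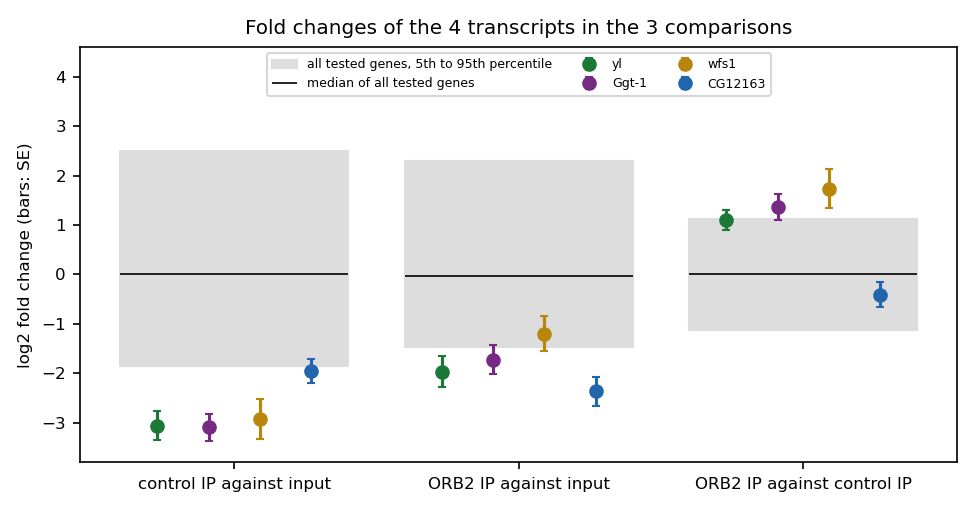
Log2 fold changes (y axis, with SE bars) of the 4 transcripts in each comparison, over the 5th to 95th percentile (grey) and the median (line) of all genes tested. In control IP against input, 3 transcripts lie near −3 and CG12163 at −1.95; in ORB2 IP against control IP, the same 3 lie at or above 1.09 and CG12163 at −0.41.

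The 4 transcripts did not share one profile. Falls in these same libraries chose them, CG12163 in ORB2 IP and yl, Ggt-1 and wfs1 in control IP. Profiles and neighbours are therefore given as a description. AP-2mu, Hsp60A, nos and GCS1, named below, were also among the falls just below wfs1 in control IP. Profiles were compared as log2(normalized count + 1) over the 9 libraries, each centred on its own mean, by the root mean square difference, over the 4905 other genes with a mean of at least 100. Nearest to yl was AP-2mu, which encodes a subunit of the AP-2 clathrin adaptor, at a distance of 0.22 (Pearson r 0.990), then Hsp60A, a mitochondrial chaperonin, at 0.22 (0.987), and Ggt-1 at 0.23 (0.985). Nearest to Ggt-1 were nos at 0.18 (0.992), AP-2mu at 0.20 (0.993) and GCS1, an ER glucosidase of glycoprotein trimming, at 0.22 (0.987). The nearest to wfs1 lay farther off, Gmap, a Golgi protein, at 0.26 (0.988), slif, an amino acid transporter, at 0.27 (0.985), and Ppat-Dpck, of coenzyme A synthesis, at 0.27 (0.979).

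CG12163 had other neighbours. These were CG8042 at 0.18 (Pearson r 0.991), cathD, which encodes the lysosomal aspartic protease cathepsin D, at 0.21 (0.986), and Ptpmeg2, a tyrosine phosphatase, at 0.24 (0.975). Among the 4 themselves, Ggt-1 lay 3rd from yl (0.23), and wfs1 lay 27th from Ggt-1 (0.33) and 64th from yl (0.42). CG12163 lay 501st from yl, at 0.73. For comparison, the median distance of all genes was 1.39 from yl and from wfs1 and 1.14 from CG12163. The 9 libraries fall into 3 groups, which alone gives high correlations between genes that differ in the same way between groups.

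**Figure D3:**
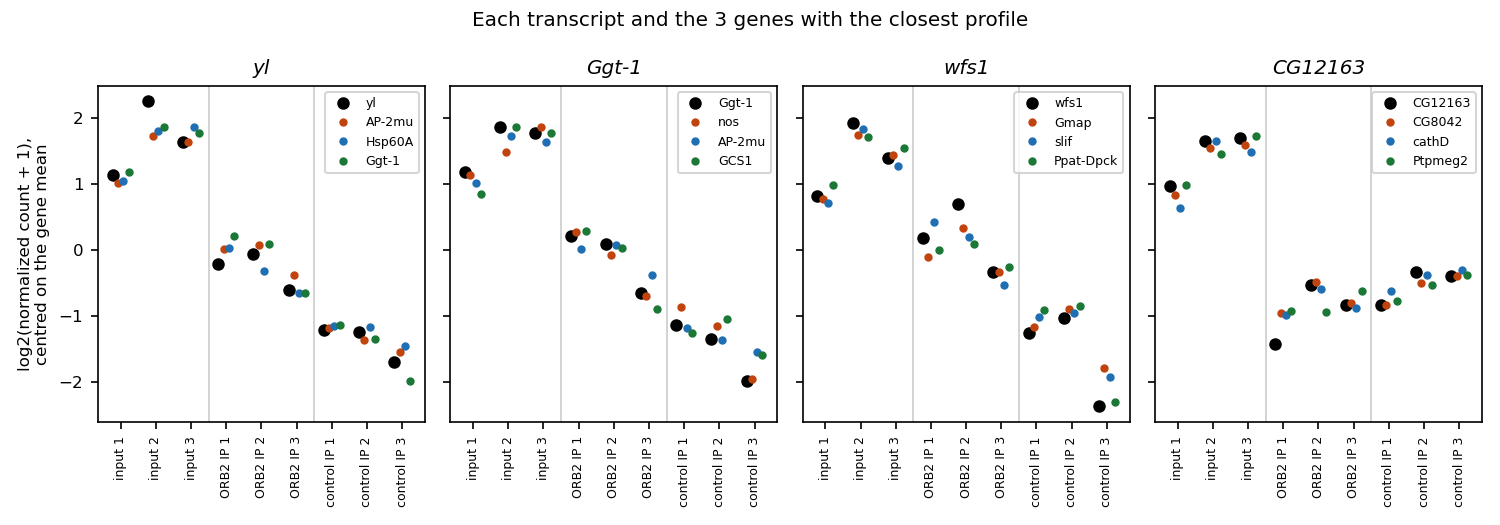
Centred log2(normalized count + 1) of each transcript (black) and of the 3 genes nearest to it (colours) in the 9 libraries, with grey lines between input, ORB2 IP and control IP. The neighbours of yl, Ggt-1 and wfs1 step down from input to ORB2 IP to control IP, while those of CG12163 fall to a like level in both immunoprecipitates.

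Other genes of the pathways of these proteins were counted from lists, leaving out the 4 themselves. In control IP against input, 33.5% of the 6355 genes tested were higher and 32.3% lower, with a median log2 fold change of 0.01. With equal totals 1403 of 6381 genes were higher there and 2874 lower, and in TPM (pseudocount 1) 1173 and 3193 of 6427. List counts of this comparison under those scalings are to be read beside these numbers. Between ORB2 IP and control IP, 20.8% of 6318 were higher and 21.6% lower, with a median of 0.00. Lysosomal proteins, the group of CG12163, were lower in control IP than in input for 8 of 12 genes tested and higher for 0, with a median log2 fold change of −1.44. That is beside 32.3% lower over all genes. The lower genes included the cathepsin L gene Cp1 at −2.33 (SE 0.23), the cysteine protease gene 26-29-p at −1.89 (SE 0.23), cathD at −1.68 (SE 0.27) and dor, a subunit of the vacuolar tethering complexes, at −1.47 (SE 0.26). In every alternative tried 8 to 11 of them were lower and 0 higher. The comparison of ORB2 IP with input, which uses the same input libraries, had 7 lower and 0 higher, with a median of −1.29. Over all genes 26% were higher and 25.1% lower there, with a median of −0.03.

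Between ORB2 IP and control IP 2 of 12 lysosomal genes were higher and 0 lower, with a median of 0.27 against 0.00 for all genes, and Lamp1, a lysosomal membrane glycoprotein, was at 0.57 (SE 0.16), and Lerp, a lysosomal sorting receptor, at 0.87 (SE 0.23), named after its value was seen. With the replicate number as a block the counts were 4 higher and 1 lower. They were 6 higher and 1 lower without ORB2 IP replicate 3, 1 higher without ORB2 IP replicate 2 or control IP replicate 3, and 1 higher in one fit of all 9 libraries. Scalings moved them both ways, to 0 higher and 3 lower with equal totals, 6 and 0 with equal upper quartiles, 4 and 1 with quantile normalization, and 5 and 0 in TPM (3 and 0 with a pseudocount of 0.1). cathD, at −0.38 (SE 0.18, limma Benjamini-Hochberg adjusted p 0.101), did not pass, like CG12163.

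ER stress and ER folding genes, the group of wfs1, were lower in control IP than in input for 12 of 22 and higher for 4, with a median of −0.76, beside 32.3% lower and 33.5% higher over all genes. In every alternative 11 to 17 were lower. The disulfide isomerase gene CaBP1 was at −2.09 (SE 0.26) and the ER chaperone gene Gp93 at −2.02 (SE 0.28). In the other direction, the stress transcription factor genes Atf6 and crc were at 2.65 (SE 0.55) and 1.88 (SE 0.32). Against control IP, ORB2 IP had 8 of 22 higher and 0 lower, with a median of 0.34, beside 20.8% higher and 21.6% lower over all genes. They included the calcium-binding chaperone Cnx99A at 1.17 (SE 0.22), the calcium pump SERCA at 0.90 (SE 0.23) and Herp at 0.79 (SE 0.28). wfs1 itself, at 1.73, was above all of them, but wfs1 was chosen through its fall in control IP. With equal totals the counts were 1 higher and 2 lower, with the length trend removed 3 were higher, and with quantile normalization, TPM with a pseudocount of 0.1 or one fit of all 9 libraries 5 were. Leaving out control IP replicate 3 gave 2 higher, and leaving out ORB2 IP replicate 1 or 2 gave 4.

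The relatives of yl were few. The yolk protein genes Yp1, Yp2 and Yp3 were not matched to a listed gene. The 5 other genes tested were those of LDL receptors and their chaperone. Of these 5, 1 was lower in control IP than in input and 0 were higher. The lower one was the Wnt co-receptor arr, at an adjusted p of 0.0116 (limma, Benjamini-Hochberg). The median of the 5 was −0.42, and 32.3% of all genes were lower and 33.5% higher. In ORB2 IP against input 1 was higher and 1 lower, beside 26% higher and 25.1% lower over all genes. The higher one was LpR2, with a mean normalized count of 367 ± 85.1 against 130.2 ± 34.8 in input (SD, n = 3 each), and the lower one was the chaperone gene boca, at −0.99 (SE 0.35). In control IP against input 4 of the 5 were lower with equal totals or in TPM. Over all genes the number called lower also rose there, to 2874 of 6381 and 3193 of 6427. With the length trend removed 4 were lower and 1 higher there. Between the immunoprecipitates 4 of 5 were higher in ORB2 IP and 0 lower, with a median of 0.91, beside 20.8% higher and 21.6% lower over all genes. They were arr at 0.94 (SE 0.33), LRP1 at 0.91 (SE 0.31), the lipophorin receptor gene LpR2 at 0.89 (SE 0.22) and LpR1 at 0.95 (SE 0.29), the last named after its value was seen since its mean was below 100. With the length trend removed 0 of the 5 were called, with equal totals 0 were higher and 1 lower, and with quantile normalization or TPM 1 or 2 were higher. In one fit of all 9 libraries, or with no mean-variance trend, 2 were. Leaving out ORB2 IP replicate 1 gave 2 higher, and leaving out ORB2 IP replicate 2, control IP replicate 1 or control IP replicate 3 gave 1.

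Clathrin uptake genes, which serve the route of yolk uptake, went in both directions. In control IP against input 7 of 19 were higher and 4 lower, with a median of 0.30, beside 33.5% higher and 32.3% lower over all genes. Subunits of the AP-2 adaptor differed from one another: AP-2mu was at −2.82 (SE 0.24), AP-1-2beta at −1.61 (SE 0.23) and AP-2sigma at 2.70 (SE 0.30), and AP-2alpha at 0.13 (SE 0.31) did not pass. In ORB2 IP against control IP 7 were higher and 2 lower, with a median of 0.33, beside 20.8% higher and 21.6% lower over all genes. Among them were AP-2mu at 1.26 (SE 0.21), the phosphoinositide phosphatase gene Synj at 1.22 (SE 0.27) and the clathrin light chain gene Clc at −1.20 (SE 0.17). With the length trend removed 3 were higher and 2 lower, with equal totals 4 were higher and 3 lower, in one fit of all 9 libraries 4 were higher, and leaving out ORB2 IP replicate 1, ORB2 IP replicate 2 or control IP replicate 3 gave 4 higher. Control IP against input had 3 higher and 5 lower in TPM, and 4 and 5 with equal totals.

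Glutathione enzymes, around Ggt-1, divided evenly in control IP against input, with 5 of 10 higher and 5 lower and a median of −0.14. Over all genes 33.5% were higher and 32.3% lower. Gss2, a glutathione synthetase, was at −1.99 (SE 0.25) and Trxr-1, which reduces thioredoxin, at −1.51 (SE 0.19), while GstO2 was at 1.47 (SE 0.25) and PHGPx, a glutathione peroxidase, at 1.18 (SE 0.19). In TPM 2 were higher and 5 lower, and with equal totals or the length trend removed 3 and 5. In ORB2 IP against control IP 2 of the 10 were higher and 3 lower, with a median of 0.09, beside 20.8% and 21.6% of all genes. Without control IP replicate 2, 0 were higher and 3 lower, and without ORB2 IP replicate 1, ORB2 IP replicate 2 or control IP replicate 3, 1 was higher and 3 lower. With equal totals 0 were higher and 4 lower, with the length trend removed 3 and 2, and with quantile normalization, one fit of all 9 libraries or no mean-variance trend 1 and 3.

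Genes for targeting to and translocation into the ER were called in both directions. In control IP against input 9 of 24 were higher and 11 lower, with a median of −0.11, beside 33.5% higher and 32.3% lower over all genes. The counts were 4 and 14 in TPM, 4 and 11 with the length trend removed, and 6 and 11 with equal totals. Among them were the translocation factor gene Sec63 at −2.51 (SE 0.26), the signal recognition particle receptor gene Gtp-bp at −2.42 (SE 0.29), the oligosaccharyltransferase gene Dad1 at 2.41 (SE 0.34) and Srp14 at 2.22 (SE 0.26). ORB2 IP against control IP gave 5 higher and 6 lower with a median of 0.04, with the length trend removed 6 higher and 1 lower, and with equal totals 0 higher and 9 lower. The counts were 8 and 5 with equal upper quartiles, 5 and 3 in TPM, and 2 and 3 with quantile normalization or one fit of all 9 libraries. Leaving out any library but ORB2 IP replicate 3 gave 2 or 3 higher and 3 to 5 lower. Cell-surface receptors and adhesion proteins, which are membrane proteins like yl, were 1 higher and 1 lower of 16 in control IP against input, with a median of 0.02. With equal totals or in TPM 0 were higher and 5 lower, where 2874 of 6381 and 3193 of 6427 genes were lower over all genes. Leaving out 1 library gave 1 to 3 higher and 0 to 2 lower. Between the immunoprecipitates 4 of 16 were higher and 0 lower, with a median of 0.50, among them the activin receptor gene babo at 1.11 (SE 0.28). Over all genes 20.8% were higher and 21.6% lower in that comparison. All 4 lay below the values of Ggt-1 and wfs1, which were chosen through their falls in control IP. With the replicate number as a block, or with equal upper quartiles, 8 were higher, with the length trend removed 0 were, with equal totals 1 was, and in one fit of all 9 libraries or with no mean-variance trend 2 were. Leaving out ORB2 IP replicate 2 or control IP replicate 3 gave 1, and leaving out control IP replicate 1 gave 2.

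**Figure D4:**
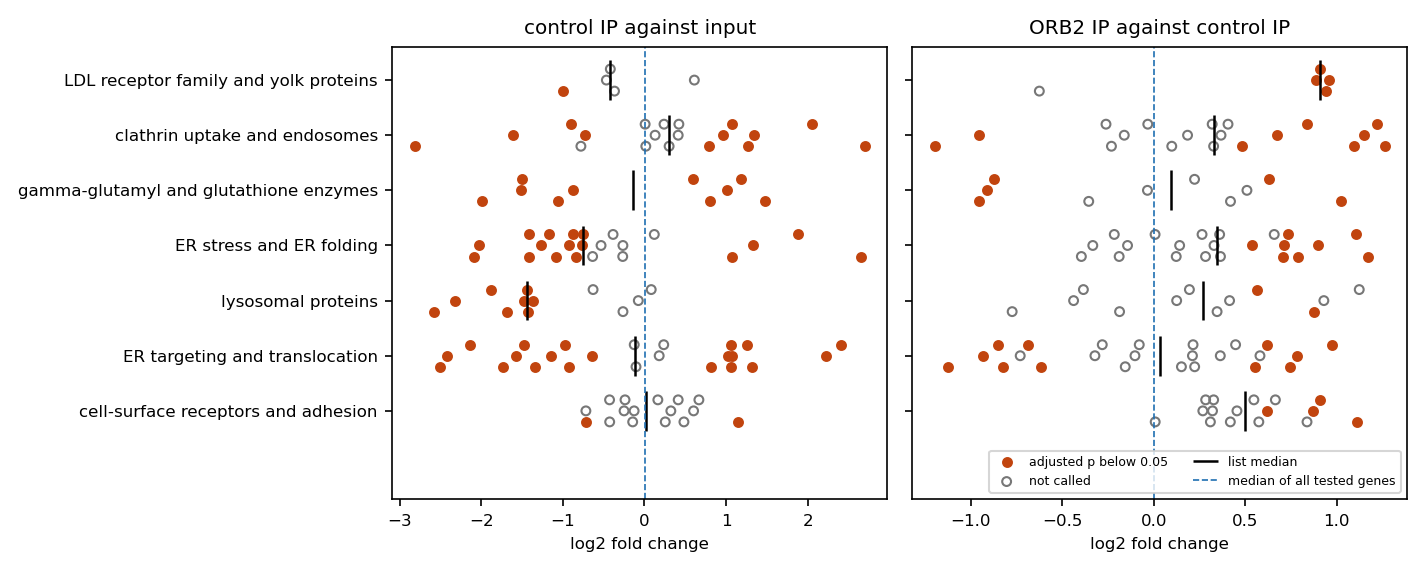
Log2 fold changes (x axis) of the genes of 7 lists, the 4 transcripts left out, in control IP against input (left) and in ORB2 IP against control IP (right), filled where the limma adjusted p was below 0.05. In the left panel 8 of 12 lysosomal genes lie called below 0 and the other lists spread to both sides, the cell-surface list having 1 call each way.

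Transcript length moved with both of these comparisons. In control IP against input the median log2 fold change was 0.70 for transcripts of at most 1279 nt and −0.44 for those of 2024 to 3292 nt, to which Ggt-1, wfs1 and CG12163 belong. It was −0.04 for those of 3296 nt or more, which include yl. Of the 1580 genes of 2024 to 3292 nt, 44.3% were called lower. In ORB2 IP against control IP the same 3 classes had medians of −0.58, 0.18 and 0.48, from short to long. Removing this trend left the fall in control IP at −2.86 for Ggt-1, −2.70 for wfs1, −1.73 for CG12163 and −3.25 for yl. The median of all genes moved from 0.01 to −0.16. Relative to the median, yl went from −3.07 to −3.08, Ggt-1 from −3.10 to −2.70, wfs1 from −2.94 to −2.54 and CG12163 from −1.97 to −1.56. Only for yl did removing the trend change the difference between the immunoprecipitates by more than 1.5 times, from a log2 fold change of 1.09 to 0.44. Whether length itself was the cause was not tested.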

How the data were processed

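RNA immunoprecipitation sequencing was analysed in 9 libraries grouped by their titles. The authors deposited TPM and normalized counts, treated here as a signal because their scale is not stated. The tools named in the submitters' processing notes are DESeq2 1.42.1, Salmon 1.9.1 and Trim Galore 0.6.5, with no roles given, and the genome build is not given in the sources used here. Per the labels, libraries were rRNA-depleted and stranded. Depth is known only in part: of values up to 3.5 times a low-value step (the median of the 5 lowest positive values of a library), 25.0% to 88.5% lay within 0.15 steps of a whole multiple, so whole reads were not recovered and no count model was run.

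Each comparison was fitted on its 6 libraries with limma 3.58.1 (trend, R 4.3.3) on log2(normalized count + 1), for genes with a mean of at least 10, two-sided, called at a Benjamini-Hochberg adjusted p below 0.05 over all genes. Fold changes on this scale understate changes of low genes. The fit was tested on simulated data drawn independently for each library, so that test does not cover dependence between libraries. Annotation came from Ensembl release 115 (BDGP6.54), which matched 6394 of the 6440 genes, and lengths are those of the transcript with the longest 3′UTR. Its coordinates say nothing of the authors' build. Same-numbered ORB2 IP and control IP libraries deviated together (correlations across genes 0.10, 0.22 and 0.27), and differently numbered ones had −0.33 to 0.08. With input the same-numbered correlations were −0.19 to 0.19. The main fits took no pairing, and the replicate number entered as a block in an alternative only. Alternatives were pseudocounts, filters, scalings, TPM, one fit of all 9 libraries, no trend, length trend removal, the replicate block and leaving out each replicate. The list counts were recomputed under the same alternatives, which was chosen after seeing the data. The named genes were the 4 members, up to 4 called genes per list with the largest changes and a mean of at least 100, and the 3 nearest profiles. Members and lists were chosen with earlier results of these data known. Python 3.11.15, pandas 2.3.3 and matplotlib 3.10.9 were used.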

Additional observations from a re-analysis of the deposited data

How the results depend on the processing

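For the 4 transcripts no direction changed in any of the 13 alternatives or 6 leave-one-out fits of each comparison. Between ORB2 IP and control IP, yl, Ggt-1 and wfs1 were called higher in 13 of 13 and 6 of 6. Their log2 fold changes ran from 0.44 to 1.35, 1.01 to 1.64 and 1.33 to 1.99. Control IP values that chose these transcripts enter each of these fits, so the tally is not independent of the choice. CG12163 became called lower with equal totals alone, at −0.76, where the median of all genes was −0.35. Its other values ran from −0.60 to −0.15. The replicate block left yl at 1.09, Ggt-1 at 1.37, wfs1 at 1.73 and CG12163 at −0.41, and changed no call of the 4. Against input the values were lowest in TPM, with equal totals or, for yl, with the length trend removed, where the medians of all genes also fell. List counts depended more on the processing, 80 moving by over 1.5 times and 376 staying within it. Higher and lower calls were added together for this tally, so a shift between directions was not seen by it. Glutathione enzymes in ORB2 IP against control IP, for example, went from 2 higher and 3 lower to 0 and 4 with equal totals. Hydropathy of the proteins, sequence motifs in 3′UTRs and their alternatives were planned and not run, since no sequences were used here. With 3 libraries a group, input replicates that differed by over 2-fold for yl and read depth unknown, changes of the size of the SE cannot be detected.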
